A study of Mus musculus with 10 samples.

Results

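The glucocorticoid receptor gene Nr3c1 and 9 genes known as its targets were followed in leukemia initiating cells of mice. The 10 genes were chosen by name, and all 10 were measured and passed the filter on low counts that left 13729 genes for the test. The targets were Tsc22d3, Fkbp5, Per1, Klf9, Sgk1, Ddit4, Btg1, Zfp36l2 and Dusp1. The cells were FACS-sorted from the spleen of 13-day-old Eμ-Ret pups. These mice carry the RFP/RET fusion transgene, a rearranged receptor tyrosine kinase that, in this line, is driven by the immunoglobulin heavy chain enhancer and gives rise to B cell precursor leukemia. Of 10 pups, 5 had received 20 µg of Poly(A:U), which is double-stranded RNA made synthetically, and 5 had received 50 µl of PBS, in both cases 7 days before sorting, and both groups carried the transgene. No group without the transgene and no group given a glucocorticoid was analysed here. The stated question was what Poly(A:U) does to these cells. Bulk RNA sequencing gave 1 library per pup with 17859006 to 22587871 estimated reads.

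Glucocorticoids enter cells freely and bind a receptor that chaperones hold in the cytoplasm. The bound receptor moves to the nucleus, where it binds DNA at palindromic response elements and raises or lowers transcription of nearby genes. In lymphoid precursors this pathway can halt growth and induce death, and synthetic glucocorticoids are a mainstay of treatment of acute lymphoblastic leukemia. Activity of the receptor depends on hormone as well as on receptor level, so its transcript and those of its targets are separate readouts.

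No difference between Poly(A:U) and PBS passed the test for any of the 10 genes. In edgeR's quasi-likelihood test, with Benjamini-Hochberg adjustment over all genes, 0 of 10 had an adjusted p below 0.05, against 0% of the 13729 genes tested. At an unadjusted p below 0.05 there was 1 of 10, Per1, against 7.30% of all genes. DESeq2's Wald test and limma voom with quality weights also called 0 of the 10, and called 0.0947% and 6.34% of all genes. The order of the genes differed in voom, where Tsc22d3 had the smallest adjusted p of the 10 (0.0959). Per1 had an unadjusted p of 0.0659 in voom. The log2 fold change was above 0 for 3 and below 0 for 7 of the genes, where 50.6% of all genes were below 0. The median was -0.06 over the 10 genes and -0.00 over all genes tested. The 95% interval of each of the 10 genes lay inside a 2-fold change in either direction, as did that of 11360 of the 13729 genes tested. In 0 of 10 did the groups not overlap in CPM (counts scaled to the library's total of reads in genes), against 0.947% of all genes.

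The libraries were not uniform, which bears on several values below. The names the authors gave to PBS 1, PBS 2 and PBS 3 share a start that no other library name has, and what it stands for is not stated. In these 3 libraries the Y-linked gene Eif2s3y was at 42.1 to 57.9 CPM and Xist, the RNA of the inactive X chromosome, was at 0.336 CPM or less. In all Poly(A:U) libraries Xist was at 227 CPM or more and Eif2s3y at 0.547 CPM or less, and PBS 5 resembled them, with 386 CPM of Xist. PBS 4 had 112 CPM of Xist and 2.80 CPM of Eif2s3y. Sex-linked transcripts were thus not balanced between the treatment groups. Summed neutrophil markers reached 743 to 1116 CPM in PBS 1 to PBS 3, whereas the remaining 7 did not exceed 280 CPM. Summed macrophage and monocyte markers were at 107 to 145 CPM in Poly(A:U), against 221 to 280 CPM in PBS 1 to PBS 4 and 116 CPM in PBS 5. Different genes made up the high sums. Lyz2 gave 107 to 141 CPM in PBS 1 to PBS 3, and no other library exceeded 47.7 CPM. C1qa, Csf1r and Vcam1 peaked in PBS 4, at 32.5, 12.2 and 22.7 CPM. Elsewhere these genes stayed at or below 4.29, 6.02 and 8.86 CPM. Mpeg1 and Fcer1g were higher in each of PBS 1 to PBS 4 than in any other library. Summed erythroid markers were at 1549 to 12596 CPM in Poly(A:U), against 304 to 609 CPM in PBS 1 to PBS 3, 2670 CPM in PBS 4 and 12100 CPM in PBS 5. PBS 4 stood apart in T cell markers, with a sum of 219.6 CPM, the next highest library being at 38.2 CPM, and Cd3e, a chain of the T cell receptor complex, was at 53.9 CPM in it. B cell precursor markers were high in every library, with sums of 10235 to 11818 CPM in Poly(A:U) and 8359 to 13201 CPM in PBS, and none of the 11 was at 0. The erythroid sum exceeded them in Poly(A:U) 2 and PBS 5. In bulk samples fewer cells of a type and less RNA per cell cannot be told apart.

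The upstream Sgk1 window and windows of Per1 and Dusp1 are shown because motifs for hormone receptor, clock and cyclic AMP factors were found in them. The window of the leading Sgk1 start, which has none of these motifs, is shown beside them. The Fkbp5 window, which has a clock factor motif, is not shown. All windows are RefSeq sequences of GRCm38.p6, each 300 bases from 250 before to 50 after an annotated start, 5′ to 3′ on the strand of the gene. Capitals mark the motifs found, and positions are counted back from the start site of the window.

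Sgk1, upstream start, chr10:21993640-21993939, plus strand: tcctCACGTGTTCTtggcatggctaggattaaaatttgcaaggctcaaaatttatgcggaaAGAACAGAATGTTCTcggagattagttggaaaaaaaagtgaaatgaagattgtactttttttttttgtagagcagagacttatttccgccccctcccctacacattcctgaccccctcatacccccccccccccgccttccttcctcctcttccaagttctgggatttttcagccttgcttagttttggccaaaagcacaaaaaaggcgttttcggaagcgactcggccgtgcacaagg
Sgk1, start of the leading transcript, chr10:21994416-21994715, plus strand: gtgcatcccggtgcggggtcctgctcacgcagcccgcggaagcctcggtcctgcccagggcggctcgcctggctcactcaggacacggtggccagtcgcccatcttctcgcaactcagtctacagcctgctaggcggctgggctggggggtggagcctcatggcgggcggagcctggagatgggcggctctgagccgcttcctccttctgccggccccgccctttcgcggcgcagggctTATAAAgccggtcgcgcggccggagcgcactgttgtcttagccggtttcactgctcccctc
Per1, chr11:69098699-69098998, plus strand: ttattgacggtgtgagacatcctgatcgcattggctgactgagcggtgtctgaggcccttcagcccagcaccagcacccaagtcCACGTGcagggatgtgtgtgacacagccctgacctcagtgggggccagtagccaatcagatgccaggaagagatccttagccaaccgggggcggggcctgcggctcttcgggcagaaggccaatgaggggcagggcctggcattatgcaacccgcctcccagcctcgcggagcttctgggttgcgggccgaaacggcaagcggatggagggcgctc
Dusp1, chr17:26508423-26508722, minus strand: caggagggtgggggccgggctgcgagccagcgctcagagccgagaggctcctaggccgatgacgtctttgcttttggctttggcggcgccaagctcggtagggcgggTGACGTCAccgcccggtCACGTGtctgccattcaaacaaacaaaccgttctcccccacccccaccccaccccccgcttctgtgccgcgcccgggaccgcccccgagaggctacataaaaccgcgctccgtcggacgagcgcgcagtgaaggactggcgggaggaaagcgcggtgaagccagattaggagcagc

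The windows were searched on both strands for 6 motifs. Nr3c1 was left out of this search, and 8 of the 9 targets had entries, with 16 windows. The receptor's full palindrome, AGAACA and its reverse complement TGTTCT with NNN between them, was in 3 of 32851 windows of the table (0.00913%), and 1 of the 3 was the upstream Sgk1 window. There the element read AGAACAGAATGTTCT, at positions 21993701 to 21993715 of chromosome 10, which is 189 bases before that start and 965 bases before the start of the leading transcript. The only transcript that starts at the upstream window, Sgk1-202, held 0.938% of the gene's TPM (abundance scaled for transcript length and library size). The leading start held 85.1%, and its window had a TATA box, TATAAA, 11 bases before the start. That window had no AGAACA, the core that makes up each arm of the palindrome. This core was in 4 of the 16 windows against 19.0% of all windows, and every full palindrome holds it by construction. These 4 were windows of Sgk1 and Tsc22d3 whose starts held 5.28% of the gene's TPM or less. No Tsc22d3 window covered the start of its leading transcript, at position 140543187, so that promoter was not searched. The E-box CACGTG, bound by clock factors and by Myc, was in 4 of 16, namely the upstream Sgk1 window, Per1, Dusp1 and Fkbp5, against 7.15% of all windows. In the upstream Sgk1 window the E-box overlaps such a core. The cyclic AMP response element TGACGTCA was in the Dusp1 window alone of the 16, 143 bases before the start, against 1.79% of all windows. TATAAA was in 3 of 16 windows against 13.6%, and the AP-1 site TGAGTCA in 0 of 16 against 5.20%. These matches describe letters in short windows and say nothing of binding in these cells.

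Levels per transcript length differed widely between the 10 genes. As TPM over all 10 libraries, Btg1 averaged 219 ± 39.3, Zfp36l2 115 ± 24.4, Tsc22d3 72.2 ± 25.1 and Sgk1 56.7 ± 11.2 (SD, n = 10). Ddit4 averaged 28.3 ± 3.7 TPM, Dusp1 16.4 ± 6.6 TPM, Fkbp5 13.4 ± 2.7 TPM and Nr3c1 12.7 ± 4.1 TPM (SD, n = 10). Per1, at 4.95 ± 0.88 TPM, and Klf9, at 2.11 ± 0.46 TPM, were the lowest. Among neighbours in this order, the ranges over libraries did not overlap for Sgk1 and Ddit4, for Nr3c1 and Per1, and for Per1 and Klf9. Btg1 was above Zfp36l2 and Zfp36l2 above Tsc22d3 within each of the 10 libraries, although their ranges overlap. The order of Tsc22d3 and Sgk1, of Ddit4 and Dusp1, of Dusp1 and Fkbp5, and of Fkbp5 and Nr3c1 varied between libraries.

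Nr3c1, which encodes the receptor, lies on chromosome 18 of mm10 (39410545 to 39519421, minus strand). It was at 44.9, 36.2, 38.9, 47.3 and 74.5 CPM in Poly(A:U) 1 to 5, against 54.1, 42.9, 48.6, 49.6 and 49.3 CPM in PBS 1 to 5. Poly(A:U) 5 was the highest of all 10 and Poly(A:U) 2 the lowest, so the Poly(A:U) libraries enclosed the whole PBS range. The mean was 48.4 ± 15.3 CPM in Poly(A:U) and 48.9 ± 4.0 CPM in PBS (SD, n = 5 each), and the log2 fold change was -0.05 ± 0.16 (SE; adjusted p = 0.943, edgeR). The 95% interval ran from -0.39 to 0.29 on the log2 scale. The mineralocorticoid receptor gene Nr3c2, whose product also binds glucocorticoids, was at 0.168 CPM or less in every library and was not tested.

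**Figure D1:**
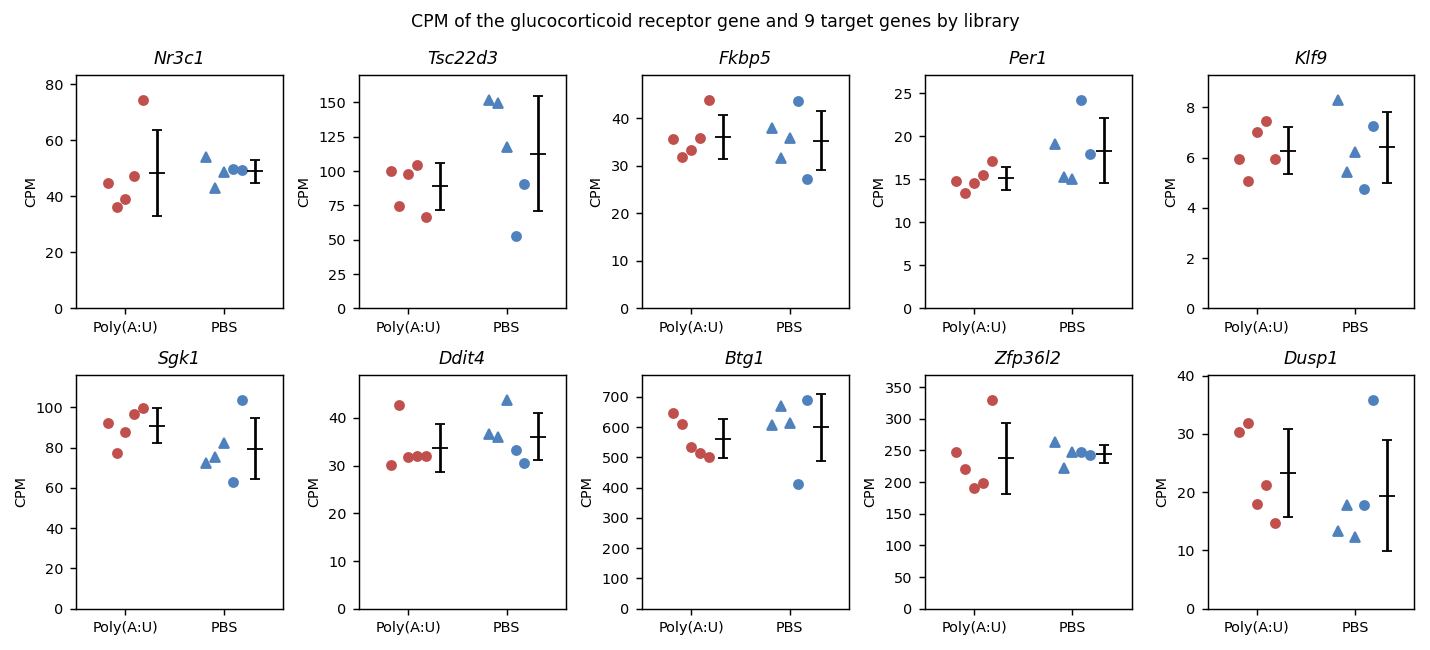
CPM of Nr3c1 and the 9 target genes, 1 panel per gene, with the Poly(A:U) libraries in red left of the PBS libraries in blue. Each point is a library, triangles are PBS 1 to PBS 3, bars are the mean and SD of 5 libraries, and the groups overlap in all 10 panels.

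Tsc22d3 encodes GILZ, a leucine zipper protein that carries part of the anti-inflammatory action of glucocorticoids, and lies on chromosome X (140539528 to 140600659, minus strand). It was at 100.4, 74.6, 97.9, 104 and 66.8 CPM in Poly(A:U) 1 to 5, against 152, 150, 117 and then 52.6 and 90.8 CPM in PBS 1 to 5. PBS 1 to PBS 3 were above all Poly(A:U) libraries, while PBS 4 was the lowest of all and PBS 5 lay within the Poly(A:U) range. The mean was 88.8 ± 16.9 CPM in Poly(A:U) and 112 ± 41.9 CPM in PBS, a log2 fold change of -0.36 ± 0.26 (SE; adjusted p = 0.725, edgeR). Without PBS 1 to PBS 3 the value was 0.28 ± 0.25 (adjusted p = 0.955), the opposite sign. Set against PBS 4 and PBS 5 in the same test, these 3 libraries had a log2 difference of 0.95 ± 0.24 (unadjusted p = 0.00214, adjusted p = 0.0995). In that contrast 0 of the 10 genes were called, against 0.561% of all genes, and 3 of 10 (Tsc22d3, Dusp1 and Per1) were at an unadjusted p below 0.05, against 18.7% of all genes. The neutrophil sum and the sex-linked genes move with these same 3 libraries, and their part in the Tsc22d3 values was not tested.

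**Figure D2:**
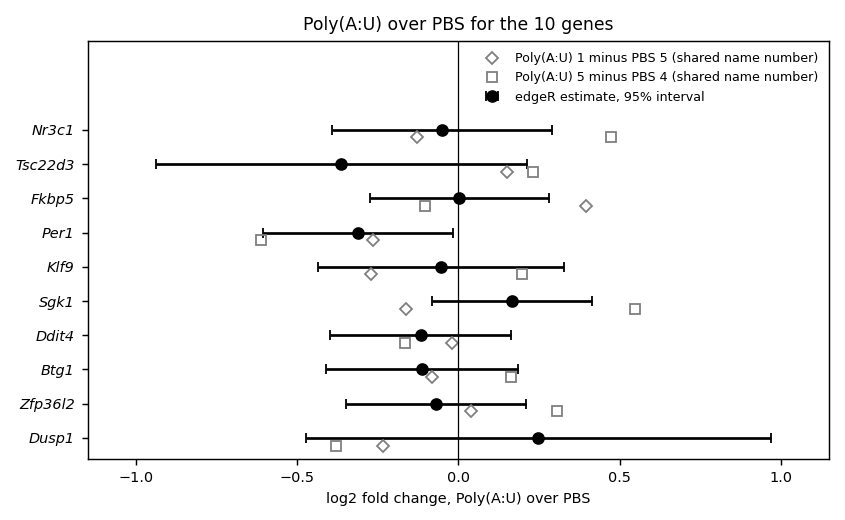
Log2 fold change, Poly(A:U) over PBS, of the 10 genes with 95% intervals from edgeR (black), and the log2 difference within the pairs of libraries whose names share a number (open symbols). All intervals lie within 1 unit of 0, and that of Per1 is the one that does not include 0.

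Fkbp5 encodes a co-chaperone that lowers the receptor's affinity for hormone and so forms a feedback loop. It ranged from 31.9 to 44.0 CPM in Poly(A:U) and from 27.2 to 43.8 CPM in PBS, with means of 36.2 ± 4.7 CPM in Poly(A:U) and 35.3 ± 6.3 CPM in PBS (SD, n = 5 each). Its log2 fold change was 0.00 ± 0.13 (SE), and the 95% interval ran from -0.28 to 0.28. Fkbp5 thus had nearly the same mean in both groups, with the highest library in Poly(A:U) and the lowest in PBS.

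Per1 encodes a repressor of the circadian clock that glucocorticoids induce acutely, and lies on chromosome 11 (69095217 to 69109960, plus strand). It was at 14.9, 13.5, 14.6, 15.5 and 17.2 CPM in Poly(A:U) 1 to 5, against 19.2, 15.3, 15.1, 24.3 and 18.0 CPM in PBS 1 to 5. PBS 4, PBS 1 and PBS 5 were above all Poly(A:U) libraries, and PBS 2 and PBS 3 lay among them. The log2 fold change of -0.31 ± 0.14 (SE) had the smallest unadjusted p of the 10 genes (0.0394), and edgeR's adjusted p was 0.677. At an unadjusted p below 0.05, 3.19% of all genes were lower in Poly(A:U). The sign was the same in each of the 20 other fits, as was that of Sgk1, and these fits reuse the same libraries. With single libraries left out, the Per1 value ranged from -0.38 to -0.18. Without PBS 1 to PBS 3 it was -0.52 ± 0.15 (edgeR, unadjusted p = 0.00750, adjusted p = 0.817). That fit and the pairs given next rest on PBS 4 and PBS 5 as their only PBS libraries. In the pairs whose library names share a number, the log2 difference of Per1 was -0.27 for Poly(A:U) 1 minus PBS 5 and -0.61 for Poly(A:U) 5 minus PBS 4. The highest library, PBS 4, is also the one with the T cell transcripts. Its median correlation with the other libraries was the lowest, at 0.939 against 0.966 or more. In PBS 4 16032 genes had 10 reads or more, against 14723 or fewer in each other library. The part of these differences in its Per1 value was not tested. Klf9, a zinc finger repressor induced by glucocorticoids in many tissues, was the lowest of the 10 genes in CPM, at 5.05 to 7.45 CPM in Poly(A:U) and 4.77 to 8.31 CPM in PBS, with a log2 fold change of -0.05 ± 0.18 (SE).

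Sgk1 and Ddit4 act on growth signalling. Sgk1, a kinase related to AKT and named for its induction by serum and glucocorticoid, was at 92.2, 77.4, 87.9, 96.7 and 99.8 CPM in Poly(A:U) 1 to 5, against 72.5, 75.5, 82.3, 63.1 and 104 CPM in PBS 1 to 5. Within PBS both the lowest and the highest of the 10 libraries occurred. The means were 90.8 ± 8.7 CPM in Poly(A:U) and 79.4 ± 15.2 CPM in PBS (SD, n = 5 each), and the log2 fold change was 0.17 ± 0.11 (SE; adjusted p = 0.711, edgeR). Ddit4 encodes REDD1, an inhibitor of mTORC1. It ranged from 30.0 to 42.7 CPM in Poly(A:U) and from 30.6 to 43.8 CPM in PBS, with a log2 fold change of -0.12 ± 0.13 (SE). Its highest library was 1.46 times its lowest.

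Btg1 and Zfp36l2, which restrain proliferation in lymphoid precursors, were the most abundant. Btg1, which binds an RNA deadenylase, ranged from 501 to 648 CPM in Poly(A:U) and from 413 to 690 CPM in PBS, and its log2 fold change was -0.11 ± 0.14 (SE). Zfp36l2 encodes a protein that binds AU-rich elements and marks messages for decay. It was at 248, 221, 191, 199 and 330 CPM in Poly(A:U) 1 to 5, against 263, 222, 248, 247 and 242 CPM in PBS 1 to 5. As for Nr3c1, Poly(A:U) 5 was far above the rest and the PBS libraries were close to each other. The log2 fold change was -0.07 ± 0.13 (SE).

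Dusp1, a phosphatase that inactivates p38 and JNK, varied most. It was at 30.3, 31.9, 18.0, 21.3 and 14.7 CPM in Poly(A:U) 1 to 5, against 13.3, 17.8, 12.3, 17.7 and 35.8 CPM in PBS 1 to 5. Poly(A:U) 1, Poly(A:U) 2 and PBS 5 were high, and the highest library was 2.92 times the lowest. The log2 fold change of 0.25 ± 0.33 (SE; adjusted p = 0.845, edgeR) had an interval from -0.47 to 0.97. Without PBS 1 to PBS 3 it was -0.22 ± 0.40 (adjusted p = 0.992), the opposite sign. Among 9092 genes that averaged 10 CPM or more, the spread of log2 CPM within groups stood at percentile 97.8 for Dusp1, 97.0 for Tsc22d3 and 83.6 for Nr3c1.

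The libraries that were high in Dusp1 were also high in immediate-early genes and in red cell transcripts. Fos, a transcription factor subunit induced within minutes of a stimulus, was at 16.8, 18.2, 10.1, 5.71 and 1.92 CPM in Poly(A:U) 1 to 5, against 2.25, 4.26, 1.97, 1.23 and 9.76 CPM in PBS 1 to 5. Jun, named here after its values were seen, was at 119 and 152 CPM in Poly(A:U) 1 and Poly(A:U) 2 and at 150 CPM in PBS 5, and did not exceed 69.5 CPM in the remaining 7. The haemoglobin gene Hbb-bs, likewise chosen after its values were seen, was at 2360 and 5058 CPM in Poly(A:U) 1 and Poly(A:U) 2 and at 5000 CPM in PBS 5, with 1744 CPM as the highest value elsewhere. The part of the red cell and immediate-early transcripts in the Dusp1 values was not tested. Not every immediate-early gene followed this order: Egr1, also chosen after its values were seen, was highest in Poly(A:U) 5, at 126 CPM, where Dusp1 was at 14.7 CPM.

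**Figure D3:**
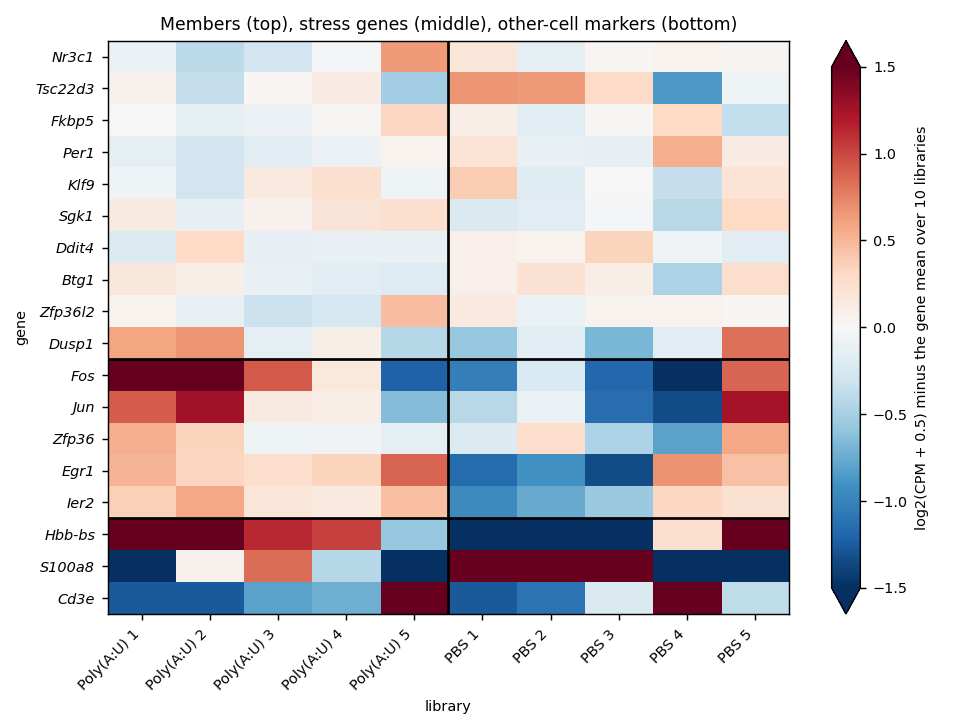
Deviation of log2(CPM + 0.5) from the mean of each gene over the 10 libraries, for the 10 genes (top), 5 immediate-early genes (middle) and 3 markers of other cells (bottom), with Poly(A:U) left of the black line and PBS right of it. Dusp1, Fos and Jun are high together in Poly(A:U) 1, Poly(A:U) 2 and PBS 5, but Fos is also high in Poly(A:U) 3. Tsc22d3 is high where S100a8, a neutrophil gene, is high (PBS 1 to PBS 3). Colours are capped at 1.5 in either direction.

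Over the 10 genes no library was high or low throughout. Poly(A:U) 5 was the highest library for Nr3c1, Fkbp5 and Zfp36l2, and PBS 5 was the highest for Sgk1, Btg1 and Dusp1. PBS 4 was the lowest for Tsc22d3, Klf9, Sgk1 and Btg1 and the highest for Per1. PBS 1 was the highest for Tsc22d3 and Klf9.

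The receptor's transcript level was set against that of each target over the 10 libraries. Zfp36l2 followed Nr3c1 in rank order and did not reach the threshold in Pearson's r after adjustment, with r = 0.82 (permutation p = 0.00718, adjusted over 9 relations 0.0646) and Spearman's rho = 0.83 (permutation p = 0.00460, adjusted 0.0207). Without the 2 libraries farthest from the median of Nr3c1, Poly(A:U) 5 and Poly(A:U) 2, r was 0.80 (permutation p = 0.0255, adjusted 0.123, n = 8) and rho no longer passed (0.83, permutation p = 0.0154, adjusted 0.0692). For Per1, r was 0.45 (permutation p = 0.233, adjusted 0.524) and rho 0.84 (permutation p = 0.00360, adjusted 0.0207). Without the same 2 libraries r for Per1 was 0.68 (permutation p = 0.0274, adjusted 0.123, n = 8) and rho 0.83 (permutation p = 0.0154, adjusted 0.0692). Without PBS 1 to PBS 3 rho was 0.75 for Zfp36l2 (permutation p = 0.0663, adjusted 0.298) and 0.89 for Per1 (permutation p = 0.0123, adjusted 0.111, n = 7). For Tsc22d3, r was -0.26 (permutation p = 0.473) and rho -0.12. The other 6 relations had r between -0.48 and 0.54 and an adjusted p of 0.428 or more for r and of 0.142 or more for rho.

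**Figure D4:**
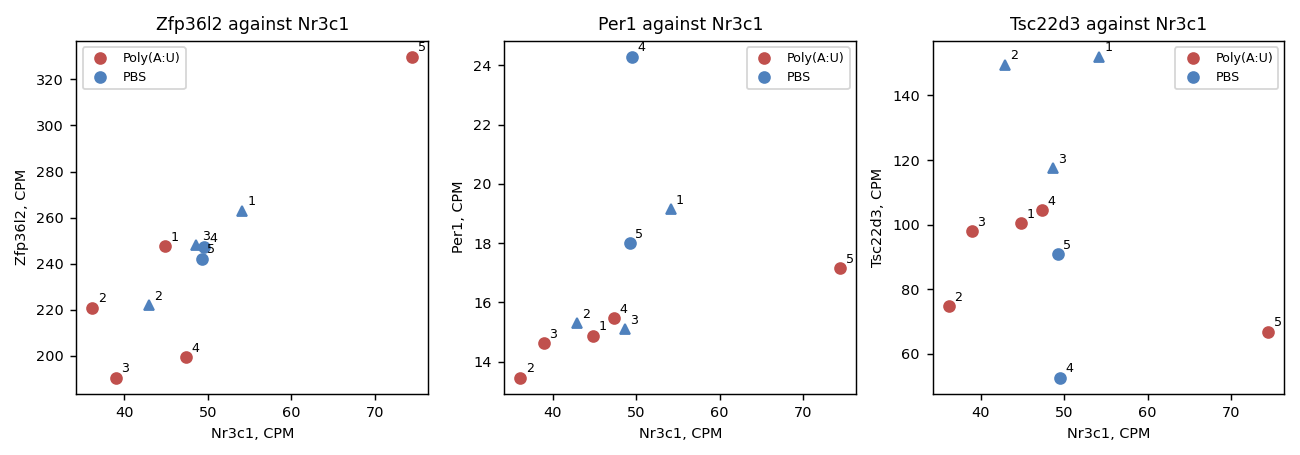
CPM of Zfp36l2, Per1 and Tsc22d3 against CPM of Nr3c1 in the 10 libraries, with Poly(A:U) in red, PBS in blue, triangles for PBS 1 to PBS 3 and replicate numbers beside the points. Zfp36l2 is higher where Nr3c1 is higher, Poly(A:U) 5 is at the far right in each panel, and Tsc22d3 shows no such order.

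The genes whose levels most resembled Nr3c1 over the 10 libraries, among 9415 genes averaging 5 CPM or more, were Nup210 (r = 0.97), Pcdhgc3 (0.96), Dock11 (0.95), Larp1 (0.95) and Mtmr9 (0.95). Nup210 encodes a nuclear pore protein, Pcdhgc3 a protocadherin, Dock11 an exchange factor for a small GTPase, Larp1 a protein that binds messages of the translation machinery, and Mtmr9 a myotubularin-related protein. Like Nr3c1, all 5 were highest in Poly(A:U) 5 and lowest in Poly(A:U) 2. By the same measure Zfp36l2 ranked 249, Fkbp5 ranked 1621, Per1 ranked 2198 and Tsc22d3 ranked 6105. The genes most like Tsc22d3 were Bbs4 (r = 0.97), Rfk (0.96), Smtnl2 (0.96), Atp6v1b2 (0.95) and Ercc5 (0.95). Bbs4 encodes a subunit of a ciliary trafficking complex, Rfk riboflavin kinase, Atp6v1b2 a proton pump subunit and Ercc5 a DNA repair nuclease. All of these were highest or second highest in PBS 1 and lowest in PBS 4. These values describe likeness over libraries that share treatment groups and name starts.

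Transcript usage was compared for the 5 genes with at least 2 transcripts averaging 1 TPM or more, and none passed. The share of the gene's TPM held by its leading transcript was tested by a two-sided exact permutation test of the difference between the groups (n = 5 each). For Nr3c1-204 it was 75.9 ± 15.4% in Poly(A:U) and 75.3 ± 8.7% in PBS (SD, n = 5 each; exact p = 0.984). For Dusp1-202 it was 63.8 ± 17.0% in Poly(A:U) and 76.6 ± 8.2% in PBS (exact p = 0.167, adjusted over the 5 tests 0.833). In Poly(A:U) 2 the Dusp1-202 share was lowest, at 37.8%, and transcripts that retain an intron held 47.6%. For Tsc22d3-201 the shares were 85.2 ± 6.2% in Poly(A:U) and 86.3 ± 2.7% in PBS, for Sgk1-201 74.7 ± 4.9% in Poly(A:U) and 76.9 ± 3.4% in PBS, and for Btg1-201 75.1 ± 8.4% in Poly(A:U) and 72.0 ± 2.9% in PBS (exact p = 0.802, 0.405 and 0.508).

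Minor transcripts start elsewhere in the same genes. Tsc22d3-203, which starts at position 140600659, far upstream of the leading start at 140543187, averaged 1.68 ± 0.51 TPM in Poly(A:U) and 2.04 ± 0.87 TPM in PBS (SD, n = 5 each). Sgk1-203, which starts at 21992223, upstream of the palindrome shown above, averaged 4.29 ± 1.89 TPM in Poly(A:U) and 1.70 ± 0.63 TPM in PBS, with overlapping ranges of 1.66 to 6.22 TPM in Poly(A:U) and 0.909 to 2.47 TPM in PBS. This difference was chosen after the values were seen and was not tested. Sgk1 transcripts that retain introns held 16.3 ± 3.3% of the gene's TPM in Poly(A:U) and 18.8 ± 2.4% in PBS. Transcript values are the estimates of the authors' counter, so shares of overlapping transcripts carry its error as well.

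**Figure D5:**
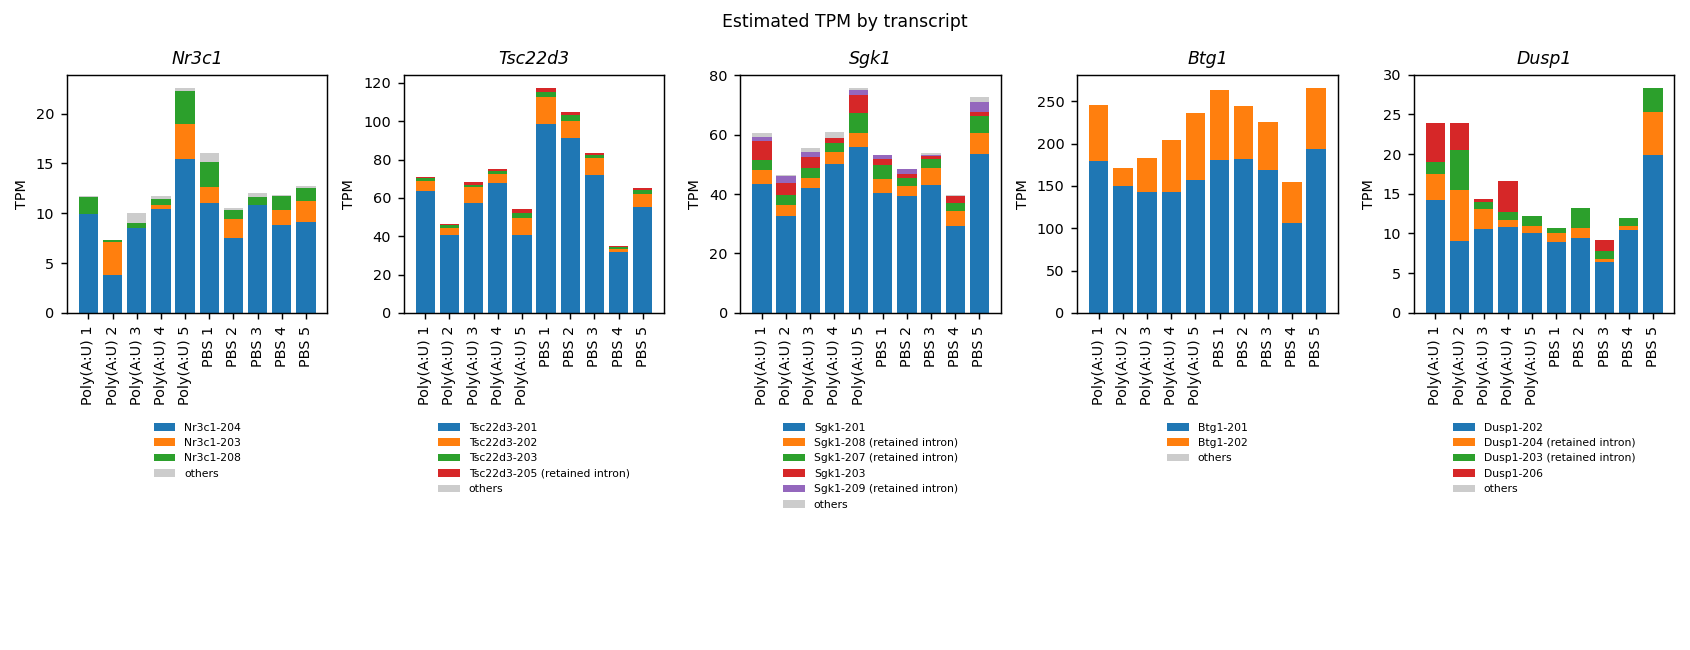
TPM by transcript for Nr3c1, Tsc22d3, Sgk1, Btg1 and Dusp1, as stacked bars, with Poly(A:U) 1 to 5 left of PBS 1 to 5. The leading transcript holds most of the TPM in nearly all libraries, and Dusp1 in Poly(A:U) 2 is the bar in which it holds the least, 37.8%.

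Other genes of the pathway were read from 9 lists with 103 genes, of which 84 were tested. edgeR's test called 0 of the 84, with 8 at an unadjusted p below 0.05, against 7.30% of all genes. DESeq2's Wald test called 0. limma voom with quality weights called 18, of which 9 were higher and 9 lower, against 6.34% of all genes. The voom calls were 5 FOXO genes, 4 coregulators, 4 paralogs, 3 immediate-early genes, 1 chaperone and 1 other glucocorticoid-induced gene. Without PBS 1 to PBS 3, edgeR called 0 of 87 tested and 1 was at an unadjusted p below 0.05.

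The chaperones that fold the receptor for hormone binding had 5 genes above 0 and 4 below among 9, with a median log2 fold change of 0.01. Hspa8, the constitutive HSP70, averaged 1085 ± 97 CPM in Poly(A:U) and 832 ± 221 CPM in PBS (SD, n = 5 each), and the log2 fold change was 0.36 ± 0.17 (SE; adjusted p = 0.686, edgeR), and voom called it. The PBS libraries with the shared name start were at 605 to 738 CPM and the other PBS libraries at 950 and 1159 CPM, and the log2 fold change was 0.01 without PBS 1 to PBS 3. Ptges3, the p23 co-chaperone, averaged 158 ± 5.7 CPM in Poly(A:U) and 140 ± 18 CPM in PBS, a log2 fold change of 0.15 ± 0.10 (SE).

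Coregulators of the receptor had 11 of 12 genes below 0, with a median of -0.17 and 2 at an unadjusted p below 0.05, where 50.6% of all genes were below 0 and 7.30% were at such a p. Smarca4, the BRG1 ATPase of the SWI/SNF remodeller, averaged 1693 ± 157 CPM in Poly(A:U) and 1944 ± 237 CPM in PBS, a log2 fold change of -0.23 ± 0.10 (SE). edgeR gave it an adjusted p of 0.677, and it was among the 4 coregulators that voom called lower, against 6.34% of all genes called in either direction. The median was -0.06 without PBS 1 to PBS 3, with 7 of 12 below 0.

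Of 6 genes for steroid handling and the mineralocorticoid receptor, 3 were tested. Hsd11b1, the enzyme that regenerates active glucocorticoid from its inert form, averaged 7.39 ± 0.95 CPM in Poly(A:U) and 9.78 ± 3.23 CPM in PBS, a log2 fold change of -0.43 ± 0.21 (SE; adjusted p = 0.693, edgeR). It was 0.06 without PBS 1 to PBS 3. Abcb1b, a drug efflux pump that also exports steroids, averaged 5.31 ± 1.43 CPM in Poly(A:U) and 4.42 ± 0.79 CPM in PBS.

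Among 16 other glucocorticoid-induced genes, 14 were tested, with 6 above 0, 8 below and a median of -0.07. Il7r, the interleukin-7 receptor chain on which B cell precursors depend, averaged 268 ± 24 CPM in Poly(A:U) and 309 ± 45.5 CPM in PBS (SD, n = 5 each), and the log2 fold change was -0.23 ± 0.10 (SE; adjusted p = 0.677, edgeR), and voom called it lower. The value was -0.05 without PBS 1 to PBS 3. Cebpd was below 1 CPM on average in both groups. Of 10 inflammatory genes that glucocorticoids repress, 8 were too low to test. The tested ones were Icam1, an adhesion molecule, at 56.6 ± 4.5 CPM in Poly(A:U) and 54.8 ± 4.8 CPM in PBS, and Tnf, at 2.37 ± 1.61 CPM in Poly(A:U) and 1.79 ± 0.62 CPM in PBS.

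The clock genes beside Per1 had 6 above 0 and 7 below among 13 tested, with a median of -0.03 and 0 at an unadjusted p below 0.05. Cry1, a repressor that pairs with the PER proteins, averaged 22.1 ± 3.6 CPM in Poly(A:U) and 19.2 ± 2.9 CPM in PBS, a log2 fold change of 0.17 ± 0.14 (SE). Bhlhe40 averaged 0.661 ± 0.331 CPM in Poly(A:U) and 1.01 ± 0.635 CPM in PBS, a log2 fold change of -0.64 ± 0.54 (SE). Per2, the closest relative of Per1 and named after its values were seen, was at 9.14 to 11.1 CPM in Poly(A:U) and 7.62 to 12.5 CPM in PBS, a log2 fold change of 0.02 ± 0.14 (SE).

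Immediate-early and dissociation stress genes had 10 of 12 tested genes above 0, with a median of 0.30, and voom called 3 of them higher. Over all genes tested, 50.6% were below 0, and voom called 6.34% in either direction. Ier2 averaged 104 ± 13.1 CPM in Poly(A:U) and 68.1 ± 27.7 CPM in PBS (SD, n = 5 each), and the log2 fold change was 0.58 ± 0.25 (SE; adjusted p = 0.677, edgeR). The median of the list was -0.01 without PBS 1 to PBS 3, with 7 above and 7 below 0 among 14 tested. FOXO factors and targets, which share several genes with the glucocorticoid response of lymphocytes, had 3 above 0 and 6 below among 9, with a median of -0.12. Of these FOXO genes voom called 2 higher and 3 lower, against 6.34% of all genes in either direction. Among them Ccng2 averaged 110 ± 14.6 CPM in Poly(A:U) and 90.4 ± 15.5 CPM in PBS, and Foxo3 96.3 ± 9.5 CPM in Poly(A:U) and 109 ± 19.9 CPM in PBS. The median was 0.09 without PBS 1 to PBS 3.

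Paralogs of the 10 genes had 14 of 18 tested above 0, with a median of 0.13, where 50.6% of all genes were below 0. At an unadjusted p below 0.05 there were 4, against 7.30% of all genes. In the fit that left out PBS 1 to PBS 3, 11 were above 0 and 7 below, and 0 were at an unadjusted p below 0.05. Dusp2, a nuclear relative of Dusp1, averaged 170 ± 20.5 CPM in Poly(A:U) and 125 ± 27.0 CPM in PBS (SD, n = 5 each), and the log2 fold change was 0.42 ± 0.14 (SE; adjusted p = 0.677, edgeR), and voom called it. Klf13, a relative of Klf9, averaged 192 ± 27.9 CPM in Poly(A:U) and 228 ± 36.9 CPM in PBS, a log2 fold change of -0.28 ± 0.12 (SE; adjusted p = 0.677, edgeR). The log2 fold change was 0.20 for Dusp2 and -0.08 for Klf13 without PBS 1 to PBS 3.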

How the data were processed

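The authors deposited, for each of 10 libraries, estimated counts of reads per transcript with TPM values, per the file headers. A second table that the authors deposited gives a normalized signal per gene, named as CPM from edgeR. DRAGEN, edgeR 3.38.4 and mm10 are given per the submitters' processing notes. Neither annotation release nor strand setting is given in the sources used here, so antisense and overlapping genes cannot be told apart. How often reads of similar paralogs were split is unknown.

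Estimated counts were summed per gene with GENCODE M21 and rounded. Of 142333 transcripts, 538 had no gene (at most 0.0695% of reads). CPM divides by the reads in genes. Sums correlated across genes with the authors' deposited signal at r = 0.991 or more in log2. Genes passing edgeR's filterByExpr (minimum count 10) were compared with the quasi-likelihood test (edgeR 4.0.16, R 4.3.3; TMM, robust, treatment as the only term), adjusted by Benjamini-Hochberg. SEs come from the F statistic. p-values are two-sided. Those of the group comparison rest on the spread between pups, which here includes differences that go with sex-linked transcripts and library names. These were unevenly spread over the treatment groups and had no term in the main fit. On simulated data for this comparison with 13729 genes, the test called 39.3%, 72.6% and 92.9% of genes changed 1.5-fold, 2-fold and 4-fold, and 4.17% of calls were false. Simulated counts varied independently between genes and libraries, without the uneven differences just named. These rates therefore need not hold for the real comparison.

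Relations used log2 CPM (prior count 2) and 100000 permutations. Named list genes were the 2 with the smallest unadjusted p in each list, since none was called, and the 5 genes most like Nr3c1 and Tsc22d3. One gene that this rule names is not reported here. The members and lists were chosen with earlier results of these data known. Alternatives were DESeq2 1.42.0, limma 3.58.1 (voom, and trend on log2 of the deposited signal plus 1), other scalings and filters, the replicate number as a block, single libraries left out, and terms for shared library names.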

Additional observations from a re-analysis of the deposited data

Results flagged for a closer look

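Of 30 groups of 5 libraries checked for a library far from the others (Dixon's test), 3 were picked out, where chance picks about 1 in 20. Ddit4 was at 42.7 CPM in Poly(A:U) 2, while the other Poly(A:U) libraries lay between 30.0 and 32.1 CPM. Dusp1 was at 35.8 CPM in PBS 5, while the other PBS libraries lay between 12.3 and 17.8 CPM. The share of Nr3c1 TPM in its leading transcript was 90.4% in PBS 3, while the other PBS libraries lay between 68.6% and 74.6%.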

How the results depend on the processing

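None of the 10 genes was called in any of the 20 other fits, of which 1 did not test Klf9. Over all genes edgeR called 0, DESeq2's Wald test 13 and limma voom with quality weights 870. Leaving out single libraries gave 0 to 18 calls, with 18 without PBS 5. Replicate numbers are not stated to pair pups, and same-numbered libraries did not deviate together (correlations of -0.18 to 0.14). With the replicate number as a block edgeR called 0 genes and 0 of the 10 members. The cause of the reversals below was not tested, and none of the values passed the test.

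Without PBS 1 to PBS 3 the log2 fold change was 0.28 for Tsc22d3, -0.011 for Fkbp5, 0.033 for Klf9, 0.052 for Ddit4, 0.0049 for Btg1, -0.22 for Dusp1, 0.057 for Hsd11b1, -0.012 for Abcb1b, 0.50 for Cebpd, -0.0073 for Cry1 and 0.060 for Foxo3. The Sgk1-201 share then differed by 0.742 percentage points. With every shared piece of a library name as a term, so that treatment rests on 2 pairs, it was 0.18 for Nr3c1, 0.19 for Tsc22d3, 0.040 for Btg1, 0.17 for Zfp36l2, -0.30 for Dusp1, -0.086 for Hspa8, -0.030 for Ptges3, 0.13 for Hsd11b1, 0.017 for Il7r, 0.19 for Foxo3 and 0.094 for Klf13. Fkbp5 was at -0.0096 with DESeq2's size factors, -0.0072 with a filter of 10 CPM and -0.0095 in DESeq2, and Klf9 at 0.029 in voom.

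With single libraries left out, the log2 fold change ranged from -0.25 to 0.019 for Nr3c1, -0.090 to 0.10 for Fkbp5, -0.14 to 0.051 for Klf9, -0.21 to 0.0016 for Zfp36l2, -0.088 to 0.59 for Tnf and -0.013 to 0.071 for Icam1. The leading share ranged from -2.58 to 6.53 percentage points for Nr3c1, -2.47 to 1.43 for Tsc22d3 and -0.114 to 5.27 for Btg1. Pearson's r with Nr3c1 was -0.33 for Sgk1 and 0.37 for Ddit4 without the 2 farthest libraries, and -0.17 for Klf9 without PBS 1 to PBS 3, an alternative chosen after seeing the data. At a filter of 10 CPM Klf9 was not tested. In the simulated counts above, 1.5-fold differences were often missed at this depth and spread.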
